A study of Mus musculus with 6 samples.

Results

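The genes that build and load MHC class I molecules were followed in Sca1+ bone marrow cells without lineage markers, compared between mice lacking Nr4a1 and Nr4a3 (DKO, a C57BL/6 and 129SvJ hybrid) and wild-type mice (WT, whose strain the labels do not give). Nr4a1 and Nr4a3 encode orphan nuclear receptors, and the comparison gives the transcripts of this stem cell-enriched population that differ between the groups. Since the WT strain is not given, a difference of strain and the loss of these genes cannot be told apart. Each group had 3 Affymetrix arrays, and every array held RNA pooled from 10 to 20 mice that were 2 to 3 weeks old. The DKO mice were bred from Nr4a1-/- and Nr4a3-/- animals.

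The set was defined as every probe set annotated to exactly 1 of 10 gene symbols: the classical class I heavy chains H2-K1 and H2-D1, the nonclassical heavy chains H2-M3 and H2-T23, the light chain B2m, the peptide transporter subunits Tap1 and Tap2, the loading chaperone Tapbp and the immunoproteasome subunits Psmb8 and Psmb9. This gave 26 of 45037 probe sets, for 9 of the 10 genes (18193 genes have such a probe set on the array). H2-T23 occurs only in 2 probe sets that carry a second symbol and therefore has no value here. The rule uses gene names and no signal, but the genes on the list were selected on earlier DKO and WT values of these same arrays, so the adjusted p-values below, which come from a fit over all probe sets, describe these arrays and are not independent support.

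MHC class I molecules show peptides from inside the cell to CD8 T cells and are read by natural killer (NK) cells. Proteasomes, among them the interferon-inducible immunoproteasome, cut proteins into peptides, the TAP transporter carries these into the endoplasmic reticulum, and tapasin bridges TAP to the waiting heavy chain and its partner beta-2 microglobulin. Nearly all nucleated cells carry class I, blood-forming cells at high levels, and interferon gamma together with the co-activator NLRC5 raises transcription of much of the pathway. NLRC5 acts on a conserved promoter module, in which the X box is bound by RFX and CREB proteins and the Y box by NF-Y.

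In the RefSeq mouse annotation (assembly GRCm38.p6) all members but B2m lie on chromosome 17, with Psmb9, Tap1, Psmb8 and Tap2 following each other and B2m on chromosome 2. The 250 bases before the annotated start are printed for H2-M3, H2-K1, H2-D1 and B2m, because these 4 share the spacing of that module although their signals differed in how far they moved between the groups. Each runs 5′ to 3′ on the strand of its gene, and the capitals mark matches on either strand to TGACG (core of the X2 box), CCAAT (core of the Y box, ATTGG on the other strand), TTTCACTTC (an interferon element of class I genes) and GAAA repeated after any 2 bases (interferon-stimulated response element). The windows are chr17:37269984-37270233 on the plus strand for H2-M3, chr17:34000348-34000597 on the minus strand for H2-K1 (the first of 2 annotated starts), chr17:35262844-35263093 on the plus strand for H2-D1 and chr2:122147437-122147686 on the plus strand for B2m.
H2-M3: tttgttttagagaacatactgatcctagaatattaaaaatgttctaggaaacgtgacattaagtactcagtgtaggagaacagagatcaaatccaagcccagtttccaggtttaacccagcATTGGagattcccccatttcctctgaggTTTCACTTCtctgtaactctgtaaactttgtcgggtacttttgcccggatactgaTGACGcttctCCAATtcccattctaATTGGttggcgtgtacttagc
H2-K1: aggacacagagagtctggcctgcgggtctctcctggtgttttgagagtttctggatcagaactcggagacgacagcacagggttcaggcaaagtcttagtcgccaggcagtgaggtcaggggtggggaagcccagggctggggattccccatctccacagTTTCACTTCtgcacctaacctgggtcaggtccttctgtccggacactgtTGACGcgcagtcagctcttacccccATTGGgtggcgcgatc
H2-D1: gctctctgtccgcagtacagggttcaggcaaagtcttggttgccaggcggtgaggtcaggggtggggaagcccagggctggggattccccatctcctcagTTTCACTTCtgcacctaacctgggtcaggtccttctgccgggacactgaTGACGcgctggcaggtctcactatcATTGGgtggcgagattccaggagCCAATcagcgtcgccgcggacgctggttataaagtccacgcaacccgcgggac
B2m: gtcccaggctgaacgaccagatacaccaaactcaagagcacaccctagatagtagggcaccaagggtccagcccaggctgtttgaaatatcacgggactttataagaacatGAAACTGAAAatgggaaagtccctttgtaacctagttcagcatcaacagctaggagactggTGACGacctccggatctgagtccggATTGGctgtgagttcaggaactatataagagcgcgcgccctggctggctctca

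In all 4 windows TGACG is followed, after exactly 20 bases, by ATTGG. That pair occurred in 0.0925% of 27025 promoter windows of the same length, and in 4 of the 9 members with a window; it was looked for after the sequences had been read. TTTCACTTC was present in H2-M3, H2-K1 and H2-D1 and in 0.429% of all windows, and was also chosen after reading. Only B2m and H2-T23 among the members held that response element (3.04% of all windows). AAAGGTCA, the site of NR4A monomers, was found in 0 of the 9 member windows and in 1.31% of all windows. The windows of Tap1 and Psmb9, which are transcribed away from each other, share 225 bases. A match is a run of letters and says nothing of binding.

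Array signals are MAS5 values on a linear scale, and differences are DKO minus WT on the scale of log2(signal + 16), which understates changes of dim genes. The fit was limma's moderated test, with p-values adjusted by the Benjamini-Hochberg method over 27022 probe sets and a threshold of 0.05, and "rose" and "fell" are kept for values past it. Probe sets in the lowest 40% by mean log2 value were not tested (below a signal of about 53.2), which left 19 of the 26 member probe sets. A probe set dim in WT, of the members or of the lists below, could enter the test through its DKO signals. For the 7 other member probe sets the values come from the same fit with no filter. Counts at an unadjusted p under 0.05 are a description, since the share over all tested probe sets was not counted. Such p-values were common: the listed marker gene Sdc1, at an unadjusted p of 0.0496, had a limma adjusted p of 0.351.

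Beside the members, a few facts of the arrays bear on what follows. The Nr4a1 probe set was at 8.0, 22.4 and 33.8 on DKO arrays, against 1110.5, 1269.4 and 816.3 on WT arrays. The 3 Nr4a3 probe sets were all below the filter, so they check the labels poorly: 1421079_at was at 0.6 to 20.9 in DKO and 40.4 to 61.8 in WT, 1438796_at at 6.9 to 25.9 in DKO and 22.6 to 145.4 in WT, and 1421080_at at 21.2 to 60.9 in DKO and 44.3 to 63.7 in WT, the last 2 with overlapping groups. WT replicate 2 stood apart from the other WT arrays in markers of mature cells, with a mean neutrophil marker level of 1.58, against -0.14 and -1.19 in WT replicates 1 and 3 (log2, after taking off the 6-array mean of each gene). Stem and progenitor markers were present in every array but lower in DKO: 6 of 10 tested fell and 0 rose, with mean levels of -0.64 to -0.50 in DKO and 0.18 to 0.84 in WT. The sort marker gene Ly6a was not analysed here. In bulk RNA, fewer cells of a type and less RNA per cell cannot be told apart.

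Of the 19 tested member probe sets, H2-M3 alone rose and 0 fell, where 1.37% of all tested probe sets changed (0.807% rose and 0.563% fell). H2-M3 encodes a nonclassical heavy chain that presents peptides with a formylated first methionine, as bacteria and mitochondria make them. Its signal was 3470.4, 2733.9 and 2949.2 on DKO arrays, against 331.8, 726.6 and 387.2 on WT arrays. The groups were far apart, and the highest WT value was that of WT replicate 2. The means were 3051 ± 379 in DKO and 482 ± 214 in WT (SD, n = 3 arrays each). The log2 difference was 2.70 ± 0.29 (SE; limma adjusted p = 0.00103), a 6.49-fold higher value on this scale. Without WT replicate 2 it was 3.03, and over the 6 fits that each left out an array it stayed past the threshold, between 2.48 and 3.03, with an adjusted p of at most 0.0159. H2-M3 was measured by 1 probe set only, and its name does not carry the _x_at ending by which the manufacturer marks probe sets whose probes can match other transcripts.

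**Figure D1:**
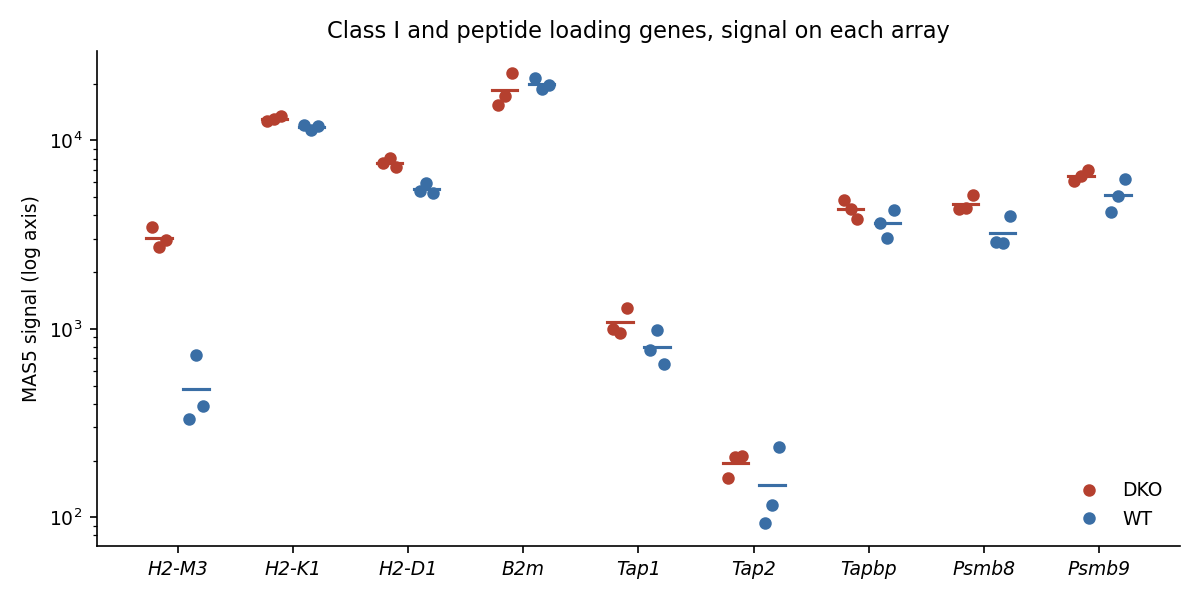
MAS5 signal (log axis) on each array for the brightest probe set of each of the 9 measured genes, with DKO arrays in red at the left and WT arrays in blue at the right; points are arrays and lines are group means (n = 3). H2-M3 sits at 2733.9 to 3470.4 in DKO and 331.8 to 726.6 in WT, while for B2m, Tap1, Tap2, Tapbp and Psmb9 the groups overlap.

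The classical heavy chains H2-K1 and H2-D1, which present most peptides to CD8 T cells, had higher values in DKO throughout, but by much less than H2-M3, and none of their probe sets passed the threshold. They have 13 probe sets, of which 11 carry the _x_at ending. H2-K1 and H2-D1 are close in sequence, so these probe sets can bind transcripts of both and of other class I genes. They are therefore not separate measurements of each gene. Of the 9 that were tested, all had the 3 DKO arrays above the 3 WT arrays, against 8.76% of all tested probe sets, and 7 had an unadjusted p under 0.05. Among the 9, 1427651_x_at had a WT mean of 43.8, below the filter limit of 53.2, and was tested through its DKO signals. Their log2 differences ran from 0.14 to 1.23.

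For H2-K1, probe set 1425336_x_at was at 12725.8, 12925.2 and 13466.6 in DKO, against 12108.5, 11359.7 and 11908.5 in WT, a log2 difference of 0.14 ± 0.12 (limma adjusted p = 0.645). Probe set 1451931_x_at read 6812.1, 5860.1 and 6598.6 in DKO and 3849.8, 4325.3 and 4995.1 in WT, a difference of 0.55 ± 0.16 (limma adjusted p = 0.138). The largest H2-K1 difference, 1.03 ± 0.25 (limma adjusted p = 0.0727), was that of 1427746_x_at, at 2468.2, 2969.3 and 1891.7 in DKO against 1275.8, 895.6 and 1407.8 in WT. The 3 probe sets thus disagreed in size, while in each of them the lowest DKO array lay above the highest WT array. The fourth, 1450534_x_at, was below the filter on low values, with overlapping groups at 35.6 to 99.4 in DKO and 23.6 to 83.1 in WT.

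H2-D1 was read by 2 probe sets without the _x_at ending. One of them, 1426324_at, was at 7595.5, 8082.6 and 7197.0 in DKO, against 5384.9, 5970.3 and 5273.4 in WT (0.46 ± 0.15, limma adjusted p = 0.164). The other, 1451934_at, was dim on every array, at 15.1 to 18.4 in DKO and 1.9 to 14.2 in WT. Values of the bright _x_at probe sets were close to that of 1426324_at. They were 0.56 ± 0.16 for 1425545_x_at (7190 ± 441 in DKO and 4885 ± 714 in WT, SD, n = 3) and 0.56 ± 0.17 for 1451784_x_at (6006 ± 596 in DKO and 4084 ± 617 in WT), with limma adjusted p = 0.123 and 0.151.

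Dimmer H2-D1 probe sets had larger differences with larger errors. For 1451683_x_at the signal was 1020.2, 905.4 and 704.8 in DKO, against 387.3, 631.4 and 438.2 in WT (0.85 ± 0.29, limma adjusted p = 0.207). Probe set 1450170_x_at gave 397.4, 371.8 and 268.7 in DKO and 171.5, 86.1 and 168.0 in WT (1.23 ± 0.39, limma adjusted p = 0.169). At 1427651_x_at the DKO arrays lay at 81.1 to 139.2 and the WT arrays at 9.9 to 71.1 (1.12 ± 0.54, limma adjusted p = 0.378). The groups did not overlap in any of these 3. Of the probe sets too dim to test, 1452544_x_at was at 17.3 to 41.4 in DKO and 4.9 to 10.9 in WT, and 1425614_x_at overlapped, at 26.5 to 62.9 in DKO and 27.8 to 47.6 in WT.

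B2m, the light chain that every class I heavy chain here needs at the cell surface, was among the bright genes, and its 2 probe sets differed in sign. At 1449289_a_at the signal was 15331.5, 17246.8 and 22720.8 in DKO, against 21478.9, 18678.5 and 19634.6 in WT (-0.13 ± 0.15, limma adjusted p = 0.760). The signal of 1452428_a_at was 12921.0, 11350.8 and 13406.1 in DKO, against 11501.1, 10257.7 and 11551.8 in WT (0.18 ± 0.13, limma adjusted p = 0.593). In both the groups overlapped.

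The transporter and its chaperone overlapped between the groups at every probe set. Tap1, an ATP-binding subunit of the transporter, was at 997.7, 953.0 and 1290.2 in DKO, against 771.1, 990.2 and 650.6 in WT (0.43 ± 0.26, limma adjusted p = 0.496). Its 3 other probe sets were below the filter, with signals of at most 75.6 in DKO and 28.7 in WT and differences of 0.03 to 1.04. The partner subunit Tap2 was at 161.5, 207.7 and 210.7 in DKO, against 93.0, 116.4 and 235.3 in WT (0.44 ± 0.43, limma adjusted p = 0.702), where WT replicate 3 exceeded all DKO arrays. Tapbp, which encodes tapasin, had a bright probe set, 1421812_at, at 4812.7, 4299.1 and 3813.3 in DKO and 3644.8, 3049.3 and 4297.6 in WT (0.24 ± 0.18, limma adjusted p = 0.601). A dimmer one, 1450378_at, was at 182.2, 131.6 and 84.1 in DKO, against 333.2, 175.1 and 152.9 in WT (-0.65 ± 0.44, limma adjusted p = 0.555). These 2 differed in sign, and neither difference passed the threshold.

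Psmb8 and Psmb9 encode catalytic subunits that replace constitutive ones in the immunoproteasome. The bright probe set of Psmb8, 1422962_a_at, read 4302.3, 4384.3 and 5160.6 in DKO, against 2893.7, 2841.2 and 3964.3 in WT (0.52 ± 0.19, limma adjusted p = 0.222). Its groups did not overlap. A dim one, 1444619_x_at, was at 78.7 to 124.3 in DKO and 18.3 to 96.4 in WT (1.10 ± 0.54, limma adjusted p = 0.383). Psmb9 was at 6090.8, 6491.4 and 6931.0 in DKO, against 4149.5, 5044.1 and 6259.8 in WT (0.35 ± 0.18, limma adjusted p = 0.392), with WT replicate 3 above DKO replicate 1.

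**Figure D2:**
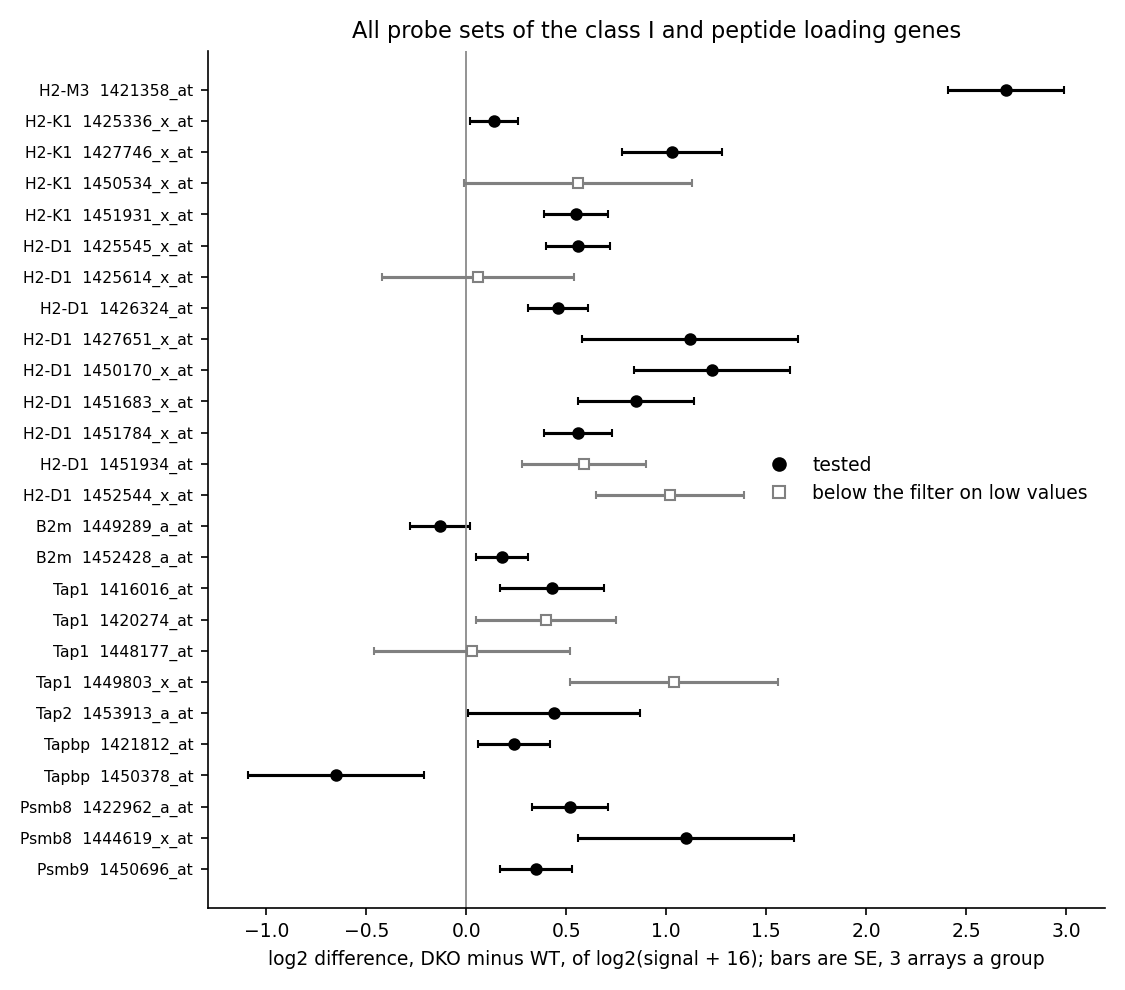
Log2 difference, DKO minus WT, of each of the 26 member probe sets with its standard error (3 arrays per group); filled circles were tested and open squares were below the filter on low values. H2-M3 stands at 2.70, the other tested probe sets lie between -0.65 and 1.23, and the H2-K1 and H2-D1 rows are mostly _x_at probe sets that can read each other's transcripts.

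Of the 19 tested member probe sets 17 had a difference above 0, beside 45.6% of all tested. Among the 17, H2-D1 1427651_x_at and Psmb8 1444619_x_at had WT means of 43.8 and 46.3, below the filter limit of 53.2. Both were tested through their DKO signals. Over all 26 probe sets, bright or dim, 24 differences were above 0, and so were 47.6% of all probe sets. The median was 0.54 (0.52 without H2-M3), beside -0.03 over all 45037. In 13 the DKO arrays all exceeded the WT arrays, as they did in 7.70% of all probe sets, and in 0 they were all below (8.68%). Those 13 were H2-M3, 11 probe sets of H2-K1 and H2-D1, of which 9 carry the _x_at ending, and Psmb8, so few separate genes stand behind the count. Since the list was proposed with this contrast known, the counts are given as a description. Nearest to the threshold were H2-M3 on the one side (adjusted p = 0.00103) and, on the other, H2-K1 at 1427746_x_at (limma adjusted p = 0.0727) and H2-D1 at 1425545_x_at (limma adjusted p = 0.123).

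None of the further heavy chains and class I-like genes tested rose. Of 28 listed, 13 had a probe set of their symbol alone and 9 were tested; 0 rose (limma; 4 had an unadjusted p under 0.05) and 1 fell, where 1.71% of 11529 tested genes changed (1.08% rose and 0.633% fell). The gene that fell was Cd1d2, one of the pair of mouse CD1d genes, whose family presents lipids. Its signal was 203.2, 477.2 and 476.2 in DKO, against 980.5, 1215.7 and 1423.4 in WT (-1.68 ± 0.35, limma adjusted p = 0.0407), and the call was lost in each of the 6 fits without an array, with an adjusted p of up to 0.118. Over the list 3 of 9 differences were above 0, with a median of -0.13. The Cd1d2 paralogue Cd1d1 was at 829.9 to 903.2 in DKO and 785.6 to 1139.0 in WT. The 15 listed genes without a probe set of their symbol alone, among them most of the H2-Q group, have no value here.

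Other genes of loading and proteolysis had small positive differences that did not pass. In the list of further loading and trimming genes, 8 of 9 differences were above 0, 0 passed with limma and 2 had an unadjusted p under 0.05. Calr encodes calreticulin, the chaperone of new heavy chains, and was at 6863.9, 5180.1 and 4986.0 in DKO, against 2463.2, 2824.7 and 3729.8 in WT (0.92 ± 0.20, limma adjusted p = 0.0518). Canx, for calnexin, differed by 0.39 ± 0.17 (limma adjusted p = 0.348). Calr passed without WT replicate 3, at 1.09 (adjusted p = 0.0320), and did not pass in the 5 other fits without an array (adjusted p up to 0.198).

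Among the immunoproteasome and proteasome activator genes 0 of 4 passed (1 at an unadjusted p under 0.05). The third inducible subunit gene, Psmb10, was at 1565.4, 1852.7 and 1596.9 in DKO, against 892.6, 950.0 and 1287.5 in WT (0.69 ± 0.23, limma adjusted p = 0.189). Psme1, an activator subunit, differed by 0.20 ± 0.21 (limma adjusted p = 0.715) and by -0.06 without WT replicate 2. In the constitutive 20S proteasome, which all cells have, 13 of 14 differences were above 0, with a median of 0.32, while 0 passed and 3 had an unadjusted p under 0.05. The smallest p there were those of Psma5 (0.56 ± 0.16, limma adjusted p = 0.138) and Psmb3 (0.60 ± 0.22, limma adjusted p = 0.233). The bright probe sets of Psmb8 and Psmb9, at 0.52 and 0.35, were within the range of this list as a whole. Its catalytic subunit genes Psmb5, Psmb6 and Psmb7 were at 0.31, 0.38 and 0.41, below Psmb8. That difference was not tested.

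Of 11 tested regulators of class I transcription, 3 had a difference above 0, with a median of -0.20. In 4 the unadjusted limma p was under 0.05. After adjustment 1 rose and 0 fell, beside 1.08% and 0.633% of all tested genes. It was Nlrc5, the class I co-activator, at 3452.3, 3202.9 and 4140.1 in DKO, against 1127.2, 1998.5 and 1331.1 in WT (1.30 ± 0.24, limma adjusted p = 0.0208). The groups did not overlap, but the call held in only 1 of 6 fits without an array, that without WT replicate 2 (1.53, adjusted p = 0.00398), and adjusted p reached 0.104 in the others. Dropping the intensity trend from the fit ended the call as well (adjusted p = 0.143). None of the 10 others passed. The 3 of them with an unadjusted p under 0.05 had all DKO arrays below all WT arrays, as did 8.68% of all probe sets. They were picked by a small p, which makes such a separation likely. Rfx5 of the RFX complex was at -0.87 ± 0.25 (limma adjusted p = 0.124). Irf2, a factor of interferon elements, was at -0.83 ± 0.29 (limma adjusted p = 0.209), and Nfya, a subunit of NF-Y, at -0.41 ± 0.15 (limma adjusted p = 0.237). Rfxank was separated in the same direction with a larger p (-0.71 ± 0.48, limma adjusted p = 0.548). Irf1, an activator of interferon elements, was at -0.20 ± 0.18 (limma adjusted p = 0.678).

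Interferon gamma itself was higher in DKO. Ifng was at 259.0, 424.2 and 463.2 in DKO, against 6.5, 10.0 and 79.1 in WT (3.34 ± 0.57, limma adjusted p = 0.0161). It was the 1 gene of 7 tested in its receptor pathway to rise, with 0 falls, where 1.08% of all tested genes rose. With a WT mean of 31.9, below the filter limit of 53.2, Ifng was tested only through its DKO signals. Its size depends on the offset, since the WT signals were near the floor: it was 4.31 with an offset of 1 and 2.27 with an offset of 64. The Ifng call held without WT replicate 2 or WT replicate 3, was lost in the fits that left out WT replicate 1 or a DKO replicate (adjusted p up to 0.0928), and did not survive a fit with no trend (adjusted p = 0.0685).

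In the list of interferon gamma-induced genes all 11 tested differences were above 0, with a median of 0.79. Of these 2 rose and 0 fell, beside 1.08% and 0.633% of all tested genes. Iigp1, an immunity-related GTPase, was at 2541.9, 2138.4 and 2401.3 in DKO, against 610.4, 304.6 and 466.7 in WT (2.37 ± 0.28, limma adjusted p = 0.00176), and stayed past the threshold in all 6 fits without an array. Cxcl9, a chemokine for activated T cells, was at 286.4, 266.2 and 345.6 in DKO, against 4.2, 16.2 and 57.5 in WT (3.11 ± 0.52, limma adjusted p = 0.0139). As for Ifng, the WT signals were near the floor and the size moved with the offset, to 4.10 with an offset of 1 and 2.05 with an offset of 64. The Cxcl9 WT mean of 26.0 was below the filter limit too, so this gene was tested through its DKO signals. The Cxcl9 call held in 3 of the 6, without DKO replicate 2, WT replicate 2 or WT replicate 3, and ended with no trend in the fit (adjusted p = 0.0527). In the fit that left out WT replicate 2, 3 genes of the list passed.

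**Figure D3:**
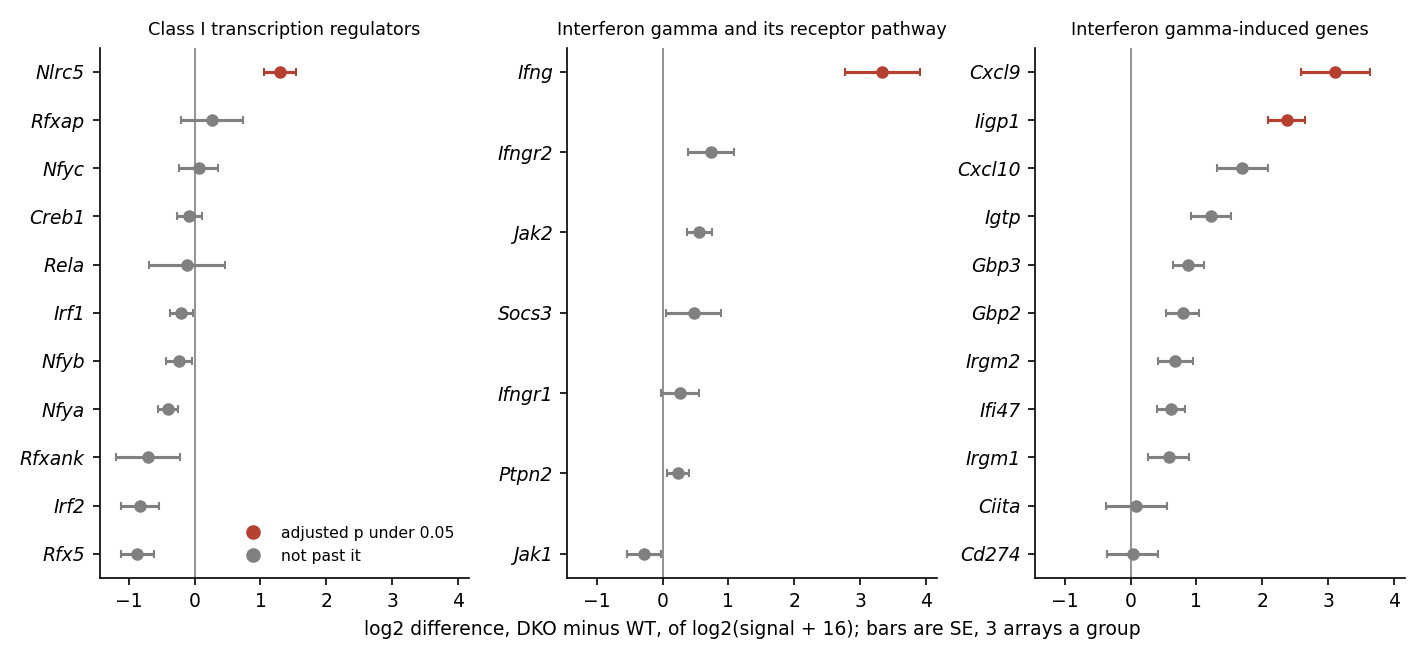
Log2 difference, DKO minus WT, with its standard error (3 arrays per group) for tested genes of the class I transcription regulators (left), interferon gamma and its receptor pathway (middle) and interferon gamma-induced genes (right); red marks an adjusted p under 0.05. Nlrc5 at 1.30, Ifng at 3.34, Cxcl9 at 3.11 and Iigp1 at 2.37 are the genes past it.

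Class II genes, which show peptides from outside the cell to CD4 T cells, are given for scale. Of 9 tested, 4 rose and 1 fell, where 1.08% of all tested genes rose and 0.633% fell. H2-Ab1 was at 2026 ± 420 in DKO and 324 ± 39.2 in WT (SD, n = 3 each), a log2 difference of 2.57, which is close in size to the 2.70 of H2-M3, whereas H2-Ob fell by 1.26 on the log2 scale (limma adjusted p = 0.0420, lost in all 6 fits without an array). Also past the threshold were H2-Aa (2.96), H2-Eb1 (2.25) and Cd74 (2.67). Of the 6 fits without an array, H2-Eb1 passed in 3, being lost in each fit that left out a DKO replicate (adjusted p up to 0.0726), and Cd74 passed in 1, that without WT replicate 2 (3.48; adjusted p up to 0.159 in the others). The difference between the class I and class II lists was not tested.

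Markers of some other cells moved with these values. Of 20 T and NK cell markers 17 were tested, 9 rose and 0 fell, where 1.08% of all tested genes rose and 0.633% fell. Summed signals of this list were 14010 to 19212 in DKO and 5054 to 5659 in WT. The T cell receptor chain gene Cd3e was at 186.3 to 261.0 in DKO and 3.3 to 18.7 in WT, and the granule protease gene Gzma at 4547.0 to 6529.9 in DKO and 133.2 to 603.3 in WT. WT means of the risen genes Cd3e (13.3), Gzmb (19.2), Eomes (26.3) and Tbx21 (39.2) lay below the filter limit. These genes were tested through their DKO signals. In the list 16 of 17 tested differences were above 0, and Cd247, another chain gene of that receptor, was below it. Cd247 was at 1997.2 to 3367.0 in DKO and 2430.7 to 4061.8 in WT (-0.41 ± 0.25, limma adjusted p = 0.499). Groups also overlapped for Cd8a (0.69 ± 0.48) and the granule gene Prf1 (0.08 ± 0.29). Cd4 was below the filter, at 25.2 to 73.9 in DKO and 37.2 to 61.3 in WT. No marker was listed at 0, since the lowest signal in the table is 0.1.

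In the list of mast cell, basophil and eosinophil markers 7 of 11 rose, beside 1.08% of all tested genes, and all 11 differences were above 0. Groups overlapped for the mast cell protease genes Cma1 (0.08 ± 0.45, limma adjusted p = 0.965) and Tpsb2 (0.65 ± 0.47, limma adjusted p = 0.579). Summed signals were 26123 to 32530 in DKO against 1594 to 12914 in WT. Fcer1a and Ccr3, with WT means of 10.2 and 16.9, were tested through their DKO signals. Monocyte, macrophage and dendritic cell markers had 1 of 10 risen and 0 fallen, with 7 of 10 differences above 0 and a median of 0.85. The summed signals of that list overlapped, at 11527 to 14879 in DKO and 8467 to 26377 in WT. Lyz2 alone gave 20633.0 of the sum on WT replicate 2. In the B and plasma cell list 2 of 10 rose, Igha and Jchain, and summed signals were 20053 to 46859 in DKO and 4349 to 12048 in WT, with most of the DKO signal from these 2 genes. The 8 other tested members all had differences below 0 and none passed, Cd79b at -1.19 ± 0.38 (limma adjusted p = 0.164) and Ebf1 at -1.27 ± 0.43 (limma adjusted p = 0.199) among them, and the median of the list was -0.72. Pax5 was dim at 5.7 to 61.7 in DKO and 3.6 to 23.3 in WT. The neutrophil list (29751 to 51717 in DKO and 17568 to 85058 in WT) and the erythroid list (20764 to 24407 in DKO and 26135 to 62567 in WT) had 0 and 1 of their tested genes past the threshold, the 1 being a fall of Car2. The part of these cells in the values of H2-M3, Nlrc5 and Ifng was not tested. For H2-M3 and Nlrc5 the difference was larger without WT replicate 2. Among the WT arrays, WT replicate 2 had the highest mean mast cell, B cell, neutrophil, erythroid and monocyte levels. Its mast cell level of -0.58 was nevertheless below every DKO array, at 1.25 to 1.44. Its monocyte level of 0.39 was below the 0.44 of DKO replicate 1. For Ifng the difference was 3.06 without WT replicate 2, against 3.34 with it. These changes rest on leaving out 1 array, and a tie to any cell type was not tested.

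**Figure D4:**
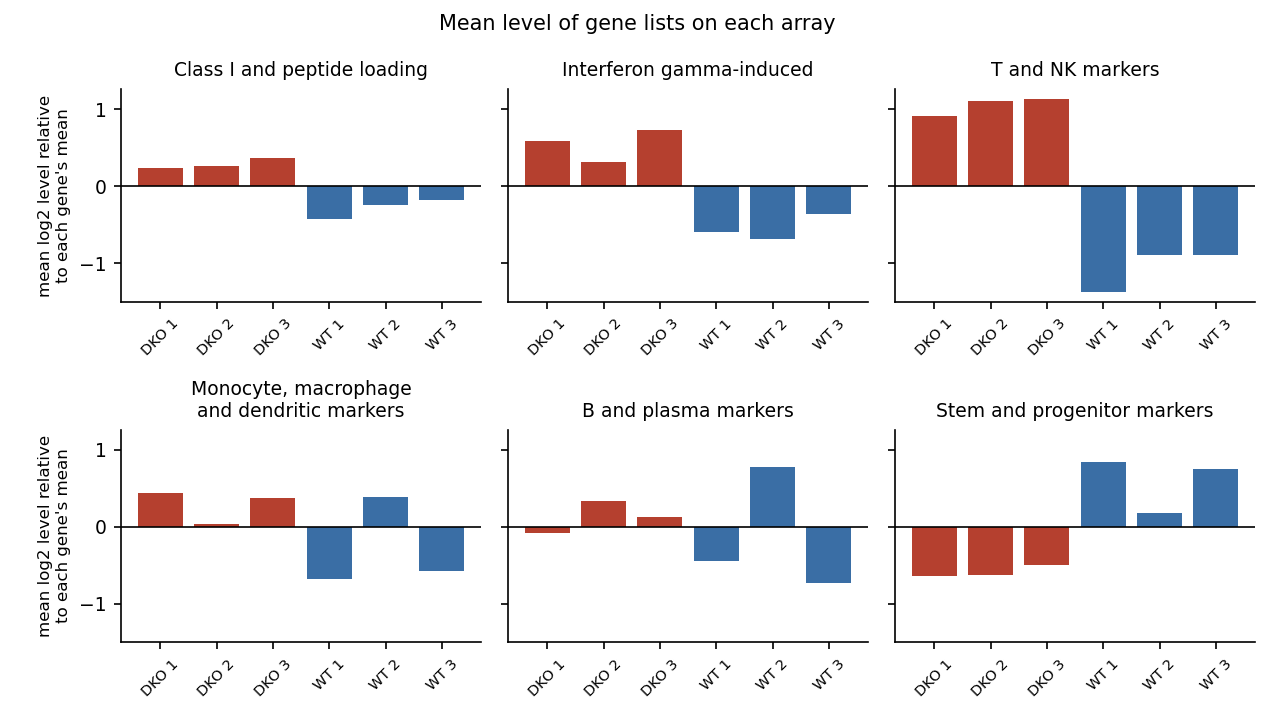
Mean log2 level of 6 gene lists on each array, with the 6-array mean of each gene taken off, with DKO in red and WT in blue. The class I and peptide loading genes lie at 0.24 to 0.37 in DKO and -0.43 to -0.18 in WT, next to T and NK markers at 0.92 to 1.14 in DKO and -1.38 to -0.89 in WT.

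Among the 9 genes, taken at their brightest probe set and standardised over the arrays, the mean was 0.35, 0.50 and 0.90 in DKO and -0.81, -0.73 and -0.21 in WT. The genes outside the list whose log2 values followed that mean most closely over the 6 arrays were Gm12338 (Pearson r = 0.998), Uchl5, which encodes a deubiquitinase of the proteasome (0.996), Rexo2, for an RNA exonuclease (0.994), Ubxn4, a gene of protein disposal at the endoplasmic reticulum (0.993), and Bcl2, the survival gene (0.992). Of 11520 genes compared, 316 had an r above 0.9, so these are a description over 6 arrays that share the group difference. None of the 5 passed the threshold between the groups: their log2 differences were 0.58, 0.48, 0.67, 0.27 and 0.59, with limma adjusted p from 0.103 to 0.460.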

How the data were processed

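RNA of 3 DKO and 3 WT pools was measured on Affymetrix arrays. The deposited table holds 1 linear intensity (signal) per probe set and array; per the submitters' processing notes the authors used MAS5, with no version given. Every array had a trimmed mean of 500 (2% left out at each end), and this scaling was kept; median signals were 91.7 to 122.6. The number of arrays limits the precision. Of 45101 probe sets, 64 controls were left out; 34945 of the 45037 others have 1 gene symbol in the platform annotation, 932 several and 9160 none there. By gene identifier 34741 matched RefSeq (GRCm38.p6), which changed 0 symbols. Coordinates are those of RefSeq windows, not of probes.

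Log2(signal + 16) values of the 27022 probe sets kept by the filter were fitted with limma 3.58.1 in R 4.3.3 (eBayes with an intensity trend, two-sided, no block), DKO minus WT; the fit was tested on simulated data. A gene of a list is represented by its brightest tested probe set with its symbol alone. Every member probe set was named. In each list of pathway genes, those past the threshold were named, or else the 2 with the smallest p. Further list members, Cd1d1, Psmb5, Psmb6, Psmb7, Rfx5, Irf2, Nfya, Rfxank and Irf1, were chosen after their values were seen. So were the single cell type markers, and not every marker past the threshold is named. Members and lists were chosen with earlier results of these data known. Replicates are separate pools, per the labels; no batch is given in the sources used here. Alternatives were offsets of 1 and 64, no filter or one of 60%, quantile normalization, median centring, no trend, array quality weights, a replicate block and each array left out. Plots used matplotlib 3.10.9 (Python 3.11.15).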

Additional observations from a re-analysis of the deposited data

How the results depend on the processing

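H2-M3 was the 1 member probe set past the threshold under all 15 alternatives run, at 2.48 to 3.03 with an adjusted p of at most 0.0352, and none of the 19 tested member probe sets changed sign under the alternatives in which it was tested. The 7 below the filter were not followed across all alternatives. The median difference of the 26 was 0.42 with an offset of 64 and 0.65 with median centring, which moved the median of all probe sets to 0.08 from -0.03; with an array left out it was 0.46 to 0.57. The number of probe sets changed, 370, was 208 with no filter, 88 without an intensity trend, 563 with array quality weights and 104 to 469 with an array left out. Psme1 was at -0.06 to 0.39 with an array left out, the negative value being that without WT replicate 2. Calr passed with an offset of 64 (adjusted p = 0.0455), with the lowest 60% left out (0.0424) and with array quality weights (0.0320). Cd1d2 was lost in 5 settings besides those without an array (adjusted p 0.0521 to 0.142), H2-Ob in 6, among them the replicate block, Cd74 in 3 and H2-Aa and H2-Eb1 without an intensity trend. Without WT replicate 2, a setting added after seeing the data, 0 further class I genes passed. Deviations of same-numbered arrays correlated at 0.142, -0.0306 and 0.053, so no strong pairing of the pools by number was seen. A weak pairing could be missed with 3 arrays per group. With the replicate block 312 probe sets changed, and of the members H2-M3 alone (limma adjusted p = 0.00489).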

Other observations

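Of the 25 genes whose 250-base promoter window holds TGACG and ATTGG 20 bases apart, 21 had a probe set of their symbol alone and 20 were tested. H2-M3 rose, and it was the 1 gene of the 20 past the threshold, with 0 falls, where 1.71% of all tested genes changed. Of the 16 outside the class I list, 8 had a difference above 0, 0 passed with limma and 2 had an unadjusted p under 0.05. These 2 were Nasp, a histone chaperone gene, at 0.54 ± 0.18 (limma adjusted p = 0.185), and BC051142, at -1.06 ± 0.37 (limma adjusted p = 0.219). The genes were chosen by sequence, after the class I windows had been read.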
